A study of Mus musculus with 8 samples.

Results

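The matrix metalloproteinases (Mmp), their tissue inhibitors (Timp), and the ADAM (Adam) and ADAMTS (Adamts) proteases were taken as every gene name in the files made of 1 of these 4 prefixes, a number and at most 1 further letter. The rule finds 79 of 24421 gene names: 23 Mmp, 4 Timp, 33 Adam and 19 Adamts genes. It uses no measured value. Expression came from 8 paired-end RNA-seq libraries of MCa-P1362, a mouse mammary tumour line started from a spontaneous tumour of a Balb/c female, with 2 libraries in each of 4 groups: coculture EpCAM+, coculture EpCAM-, monoculture EpCAM+ and monoculture EpCAM-. All groups are of this single line, grown in high glucose DMEM with fetal bovine serum, and were separated in a cell sorter by EpCAM, which epithelial cells carry on their surface as an adhesion molecule. No transgene, drug or genotype distinguishes them. Sorted cells were frozen at once or after growth and a passage, and the labels do not say which of these coculture and monoculture stand for. Nothing says that the 2 libraries of a group came from separate cultures, so the spread behind each p-value is that between libraries and may be technical.

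As background, MMPs are zinc endopeptidases, secreted or anchored in the cell membrane, that cut collagens and other matrix proteins. They are made as inactive precursors, switched on by other proteases, and blocked by TIMPs. ADAMs sit in the membrane, where several release growth factors, cytokines and adhesion proteins by cutting off their extracellular parts. ADAMTS proteases are secreted, and different members cut proteoglycans or process procollagens. In mammary tumours, fibroblast-like cells are known for much of the MMP and TIMP output, while epithelial tumour cells carry their own set of sheddases and membrane-type MMPs.

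Levels are FPKM (fragments scaled to transcript length and library size), which is per length and so can be set side by side between genes. Depth in reads is unknown. Depths of the libraries relative to each other, estimated from ratios of low FPKM values, were 0.911 to 1.16, with no measure of their uncertainty. FPKM summed to between 387489 and 414612, and 10634 to 11119 genes reached 1 FPKM. Epcam, the gene sorted on, stood at 201 ± 1.53 FPKM (SD, n = 2 libraries here and below) in coculture EpCAM+ and 0.350 ± 0.0128 in coculture EpCAM-, and at 131 ± 2.84 and 0.243 ± 0.0244 in monoculture. Of 15 mesenchymal markers, summed FPKM was 13298 to 14209 in EpCAM- libraries, 229.2 to 229.9 in coculture EpCAM+ and 21.6 to 21.8 in monoculture EpCAM+. None of them was at 0 in both libraries of a group. Their level in EpCAM+ was a median of 1.72% (range 1.38% to 2.21%) of that in EpCAM- in coculture, and 0.134% (0.0873% to 0.498%) in monoculture. The 15 epithelial markers, at 0 in both libraries of no group either, stood in EpCAM- at a median of 0.237% (0.143% to 0.454%) of EpCAM+ in coculture and 0.20% (0.161% to 0.640%) in monoculture. In sorted populations, fewer cells of a type and less RNA per cell cannot be told apart.

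Of the 79 genes, 36 reached 1 FPKM in at least 2 of the 8 libraries and were tested: 12 Mmp, 3 Timp, 9 Adam and 12 Adamts. The other 43 were not tested, 19 of them listed at 0 in all 8 libraries and 24 with some value. The highest value among those was 0.615 FPKM, for Mmp7 (matrilysin), then came 0.568 for Mmp12 (macrophage elastase). Highest among untested Adam genes was Adam11 at 0.447, and among untested Adamts genes Adamts8 at 0.258. Timp4 was listed at 0 in all 8 libraries. Differences are given as log2 fold changes on the log2(FPKM + 1) scale, which understates the change of low genes. They were tested with limma over all 12012 tested genes with Benjamini-Hochberg adjustment. A gene is called higher or lower at an adjusted p under 0.05 and a change of at least 2-fold.

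**Figure D1:**
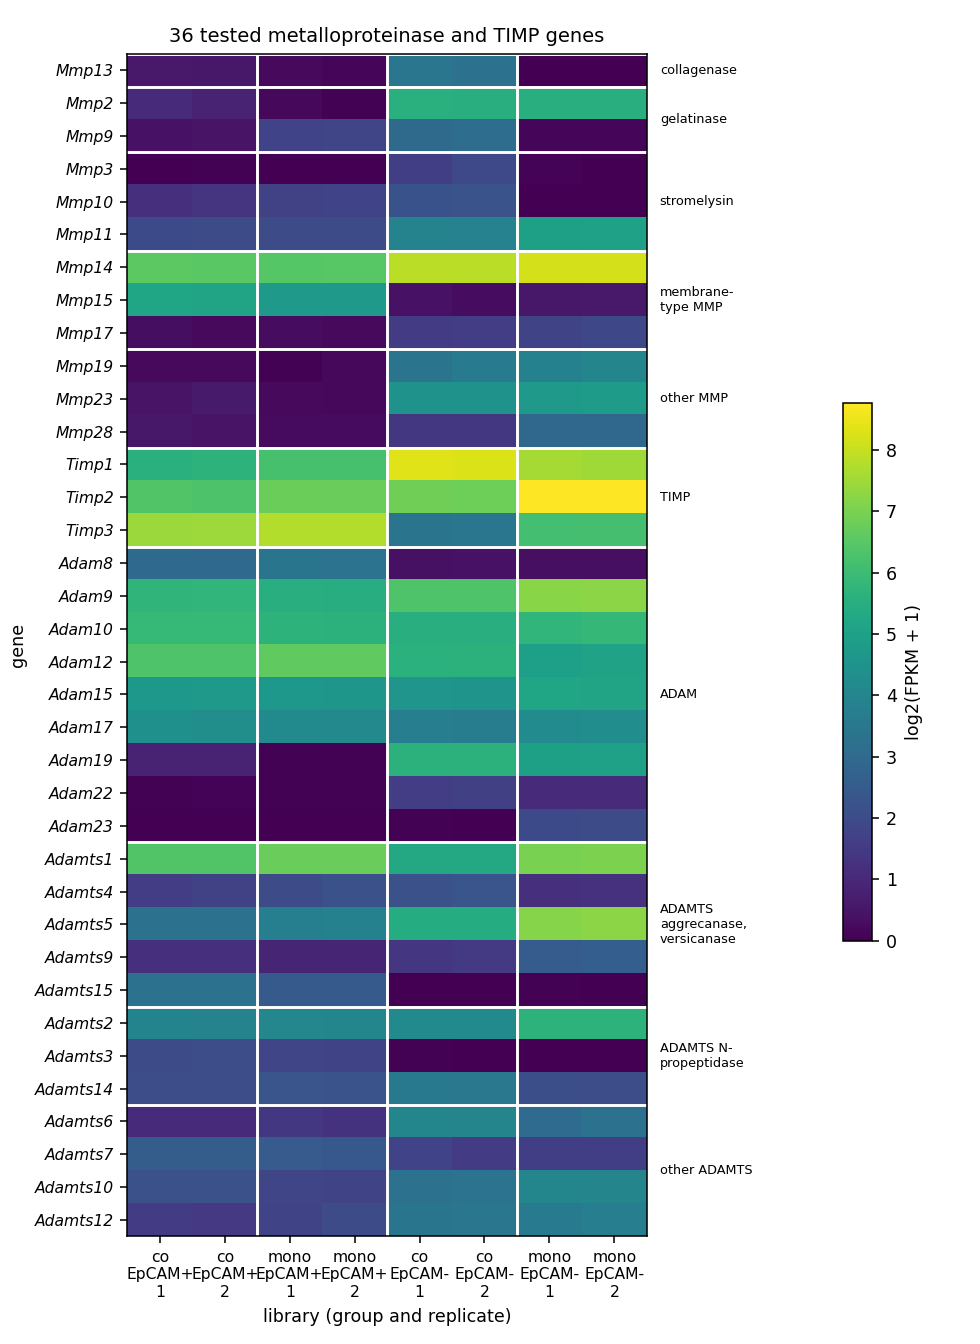
FPKM of the 36 tested metalloproteinase and TIMP genes (y axis, by role) in each of the 8 libraries (x axis, co for coculture and mono for monoculture), coloured on a log2(FPKM + 1) scale. Brighter colours are higher values. Timp1, Timp2, Timp3 and Mmp14 are among the brightest, and the 2 libraries of each group look alike.

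Most of the differences lay between the sorted fractions, and EpCAM- cells had the higher level of more of these genes. In coculture 17 of the 36 were lower in EpCAM+ than in EpCAM-, where 10.1% of all tested genes were, and 6 were higher, where 16.5% of all tested genes were. The monoculture libraries gave 19 lower, against 12.6% of all genes, and 8 higher, against 15.5%. The median difference of the 36 was -0.93 in coculture and -1.17 in monoculture, and that of all tested genes was 0.26 and 0.23. Without a minimum change, 35 and 34 of the 36 passed, as did 87.2% and 87.9% of all genes, so that count is near the background. With the other fraction's share, as its markers give it, subtracted from every library, 6 were higher and 18 lower in coculture and 8 and 19 in monoculture. The subtraction takes proportionally most from the fraction in which a gene is far lower. It could hardly remove such a call, so these counts are no test of the calls.

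Adam8, Adamts3, Adamts15, Mmp15 and Timp3 were higher in EpCAM+ in both cultures (5 genes). Lower in EpCAM+ in both were 13: Mmp2, Mmp11, Mmp14, Mmp17, Mmp19, Mmp23, Timp1, Adam19, Adam22, Adamts5, Adamts6, Adamts10 and Adamts12. Mmp9 was the 1 gene called in opposite directions. In coculture alone a call was made for 4 (Mmp3, Mmp13, Adamts1 and Adamts14), and in monoculture alone for 8 (Mmp10, Mmp28, Timp2, Adam9, Adam12, Adam23, Adamts2 and Adamts9). For all of these genes but Adam12, the change of the fraction difference between cultures was itself called. Neither culture gave a call for Adam10, Adam15, Adam17, Adamts4 and Adamts7.

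**Figure D2:**
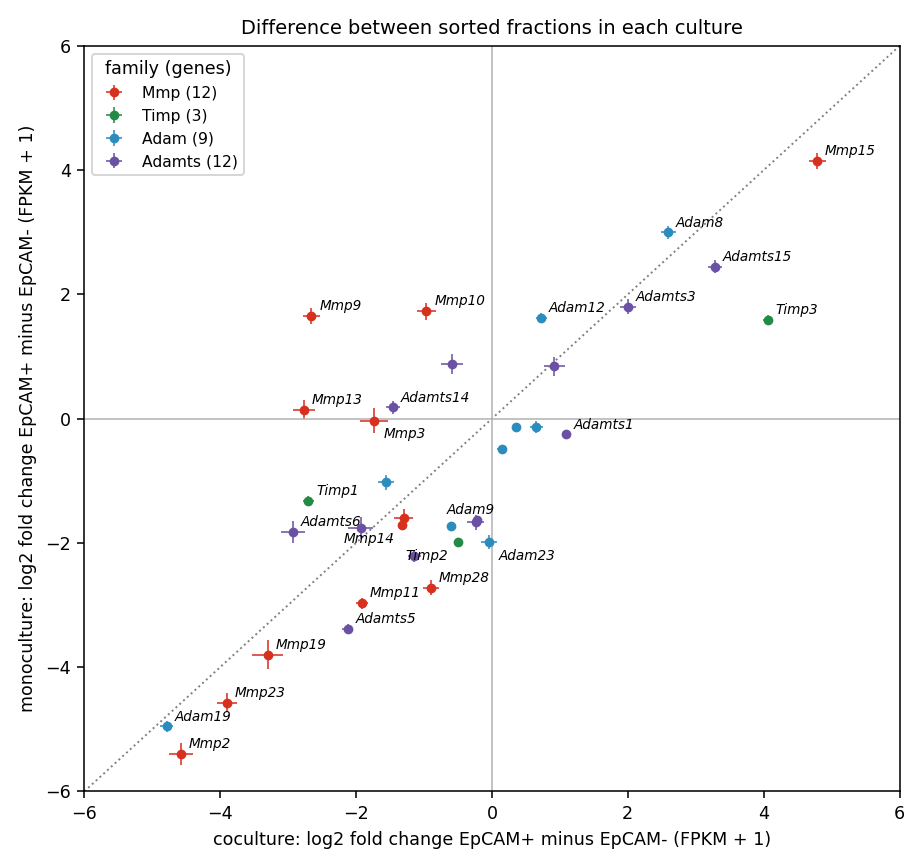
Log2 fold change of EpCAM+ against EpCAM- on the log2(FPKM + 1) scale in coculture (x axis) and monoculture (y axis) for the 36 tested genes, with 95% confidence intervals as bars and equal change as a dotted line. Mmp9 lies at -2.66 and 1.65, the one gene called with opposite signs.

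Between the cultures, more of these genes were called in EpCAM- cells than in EpCAM+ cells. In EpCAM-, 9 of 36 were higher in monoculture than in coculture (2.56% of all genes) and 5 lower (1.96% of all genes). In EpCAM+, 1 was higher, Mmp9 (0.266% of all genes), and 0 were lower (1.67% of all genes). At any size of change, limma passed 31 of 36 in EpCAM- and 27 of 36 in EpCAM+, where 62.7% and 51.4% of all genes passed. Of the 27 in EpCAM+, 13 were higher and 14 lower in monoculture, and of all 12012 tested genes 1972 and 4198. The count of 0 lower at 2-fold in EpCAM+ is set by the minimum change and not by p. The lowest change of a member was -0.83, for Mmp2. That count also rests on the pseudocount of 1: at 0.5, 2 were lower (Adam19 and Mmp2), and at 0.1, 4 were (Adam19, Mmp2, Mmp13 and Mmp23). All 4 were at or under 1.09 FPKM in every EpCAM+ library, where this pseudocount shrinks changes most. The mean FPKM of Mmp2 was 11.1-fold and of Adam19 24.3-fold higher in coculture EpCAM+ than in monoculture EpCAM+. The mesenchymal marker sum was higher there too, at 229.2 to 229.9 against 21.6 to 21.8 FPKM. With the other fraction's share subtracted, Adam19 was at 0 in each EpCAM+ library. Mmp2 was then at 0.306 and 0.0170 in coculture EpCAM+ and 0.0745 and 0 in monoculture EpCAM+. The part of that share in these changes was not tested. Median changes were 0.25 in EpCAM- and -0.03 in EpCAM+ for the 36, and 0.00 and -0.06 for all genes. The interaction, the culture change of EpCAM+ less that of EpCAM-, was called for 19: 8 positive (2.43% of all genes) and 11 negative (5.66% of all genes). At any size 34 of 36 passed it, against 65.2% of all genes. These comparisons share libraries with those between the fractions and are no independent evidence of them.

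The gelatinases, which cut denatured collagen and basement membrane type IV collagen, behaved unalike. Mmp9 (gelatinase B, mm10 chromosome 2, 164940780 to 164955850) stood at 7.24 and 7.80 FPKM in the coculture EpCAM- libraries and 0.333 and 0.368 in the coculture EpCAM+ libraries. In monoculture it stood at 2.38 and 2.56 in EpCAM+ and 0.0996 and 0.106 in EpCAM-. So the order of the fractions was turned round, and none of the groups overlapped. With 2 libraries a group, nearly all tested members had no overlap between fractions, so the lack of overlap is not particular to Mmp9. The group means ran from 7.52 ± 0.394 in coculture EpCAM-, through 2.47 ± 0.131 in monoculture EpCAM+ and 0.350 ± 0.0245 in coculture EpCAM+, to 0.103 ± 0.00463 in monoculture EpCAM-, and the libraries of neighbours in that order did not overlap. The difference of EpCAM+ from EpCAM- was -2.66 (SE 0.0552, adjusted p = 1.34e-09) in coculture and 1.65 (SE 0.0552, adjusted p = 2.12e-08) in monoculture. From coculture to monoculture Mmp9 rose in EpCAM+ by 1.36 (SE 0.0552, adjusted p = 1.24e-06) and changed in EpCAM- by -2.95 (SE 0.0552, adjusted p = 1.1e-08). Its interaction, 4.31 (SE 0.0781, adjusted p = 1.37e-08), with a 95% interval of 4.13 to 4.49, was the largest of the 36. Mmp9 is also known from leukocytes: 12 of 13 leukocyte markers were in the files, their summed FPKM was 0.711 to 1.99, and 6 to 8 of them, with Adgre1, Itgax, S100a9, Cd3e and Tyrobp in every group, were at 0 in both libraries. Ptprc was at 0 in both libraries of each group other than coculture EpCAM+. The highest leukocyte marker in each group was Cd68. Its mean was 1.29 FPKM in coculture EpCAM+, 1.17 in monoculture EpCAM+, 0.911 in coculture EpCAM- and 0.554 in monoculture EpCAM-.

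Mmp2 (gelatinase A) stood at 45.7 and 44.4 FPKM in coculture EpCAM- and 1.09 and 0.783 in coculture EpCAM+, against 44.3 and 45.1 in monoculture EpCAM- and 0.131 and 0.0380 in monoculture EpCAM+. It was high in all 4 EpCAM- libraries and low in all 4 EpCAM+ libraries. EpCAM+ differed from EpCAM- by -4.58 (SE 0.0762, adjusted p = 3.73e-10) in coculture and -5.40 (SE 0.0762, adjusted p = 1.39e-10) in monoculture, and the EpCAM- libraries of the cultures overlapped. Mmp2 in EpCAM+ was 2.07% of that in EpCAM- in coculture and 0.189% in monoculture, within the range of the mesenchymal markers in both.

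The collagenases and stromelysins include 3 tested neighbours: Mmp13 (collagenase 3), Mmp3 (stromelysin 1) and Mmp10 (stromelysin 2). They lie with 7 untested Mmp genes in a cluster on chromosome 9, between 7272514 and 7699585 of mm10 (427 kb), each gene within 200 kb of the next. Their promoters are shown because these 3 are, with Mmp9 and Adamts14, the genes called lower in monoculture EpCAM- cells, and because the activator protein 1 motif long known from Mmp promoters can be seen in them. Each stretch is the 150 bases before the RefSeq start on the + strand (GRCm38.p6), with the motif TGANTCA in capitals.
Mmp13, chr9:7272364-7272513: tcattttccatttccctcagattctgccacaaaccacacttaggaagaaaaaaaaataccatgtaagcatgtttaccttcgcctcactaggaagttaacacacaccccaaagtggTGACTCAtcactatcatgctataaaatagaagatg
Mmp3, chr9:7445672-7445821: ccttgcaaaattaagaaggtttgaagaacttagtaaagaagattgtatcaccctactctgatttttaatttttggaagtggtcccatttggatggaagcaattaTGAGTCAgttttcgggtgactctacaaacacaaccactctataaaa
Mmp10, chr9:7502192-7502341: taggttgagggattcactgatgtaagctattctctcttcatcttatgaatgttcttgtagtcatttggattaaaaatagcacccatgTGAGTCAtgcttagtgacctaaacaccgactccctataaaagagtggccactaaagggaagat

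The motif starts 35 bases before the start site in Mmp13, 46 in Mmp3 and 63 in Mmp10, and TATAAA starts 16, 7 and 29 bases before it. In windows of 300 bases (250 before the start and 50 after), searched on both strands, TGANTCA was present in 7.81% of 32851 promoter windows and in 24.1% of 54 windows of 49 matched metalloproteinase and TIMP genes. It was in 8 of the 10 genes of the cluster and 5 of the 39 other matched genes. Of 27 windows of tested members 14.8% held it, those of Adam19, Mmp3, Mmp10 and Mmp13. Adamts14, also called lower in monoculture EpCAM-, had no match, and Mmp9 had no window to search. TATAAA was in 13.6% of all windows and 25.9% of these 54, with 9 of the 10 cluster genes holding it. The ETS family motif AGGAAG was in 35.4% and 40.7%. A match is a description of these letters and not a site of binding, and none of the motifs contains another.

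Mmp13 stood at 9.79 and 8.74 FPKM in coculture EpCAM- and 0.521 and 0.491 in coculture EpCAM+, against 0.0215 and 0.0174 in monoculture EpCAM- and 0.175 and 0.0816 in monoculture EpCAM+. It was high in the 2 coculture EpCAM- libraries alone. The difference of EpCAM+ from EpCAM- was -2.77 (SE 0.0671, adjusted p = 3.34e-09) in coculture. In monoculture it was 0.15 (SE 0.0671, adjusted p = 0.0724), at levels of at most 0.175 FPKM. From coculture to monoculture the change in EpCAM- was -3.33 (SE 0.0671, adjusted p = 1.43e-08), and the interaction was 2.91 (SE 0.0949, adjusted p = 2.59e-07). Mmp10 was listed at 0 in both monoculture EpCAM- libraries and stood at 3.64 and 3.76 FPKM in coculture EpCAM-. In EpCAM+ it stood at 1.29 and 1.53 in coculture and 2.27 and 2.36 in monoculture. Its interaction was 2.69 (SE 0.0843, adjusted p = 2.12e-07), a fitted value that depends on the pseudocount because of the zeros, and its fraction difference in coculture, -0.97, was just short of 2-fold. Mmp3 reached 2.11 and 2.78 FPKM in coculture EpCAM- and at most 0.0626 in any other library, with an interaction of 1.71 (SE 0.126, adjusted p = 1.37e-05). The untested Mmp12 stood at 0.301 and 0.358, and Mmp1b at 0.365 and 0.358, in coculture EpCAM-, and both were listed at 0 in both monoculture EpCAM- libraries. Mmp12 was higher still in EpCAM+, at 0.412 and 0.473 in coculture and 0.568 and 0.442 in monoculture, so it was not high in coculture EpCAM- alone. Mmp1a and Mmp1b are known as closely related copies, and how the authors counted reads that match both is not given, so their values are uncertain.

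**Figure D3:**
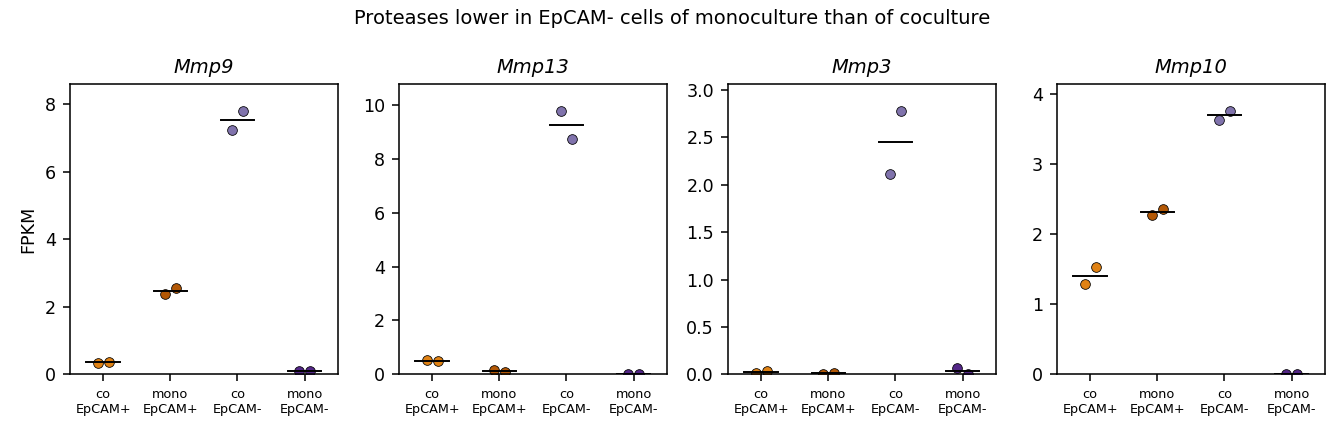
FPKM of Mmp9 and of Mmp13, Mmp3 and Mmp10 of the chromosome 9 cluster (y axis) in the 4 groups (x axis, co for coculture and mono for monoculture). Bars are group means and points the 2 libraries. All 4 genes are highest in coculture EpCAM-, and Mmp9 and Mmp10 also reach more than 2 FPKM in monoculture EpCAM+.

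Mmp11 (stromelysin 3), known for its expression in tumour stroma, went the other way from Mmp3 and Mmp10 in EpCAM-. Mmp11 stood at 14.0 and 13.8 FPKM in coculture EpCAM- and 2.91 and 2.99 in coculture EpCAM+, against 30.3 and 31.0 in monoculture EpCAM- and 3.00 and 3.07 in monoculture EpCAM+. All 4 EpCAM- libraries lay above all 4 EpCAM+ libraries, and the change to monoculture in EpCAM- was 1.09 (SE 0.0365, adjusted p = 1.67e-07). Its interaction of -1.06 fell under 2-fold with quantile scaling (-0.86) and with the other fraction's share subtracted (-0.98).

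Among membrane-type MMPs, Mmp14 was abundant in both fractions and higher in EpCAM-, while Mmp15 was abundant in EpCAM+ alone. Mmp14 (MT1-MMP, mm10 chromosome 14, 54431612 to 54445364) activates pro-Mmp2 and cuts collagen at the cell surface, and was the most abundant MMP in every library, with 66.1% to 71.9% of summed Mmp FPKM. Mmp14 stood at 233 and 231 FPKM in coculture EpCAM- and 92.1 and 92.0 in coculture EpCAM+, against 294 and 292 in monoculture EpCAM- and 87.7 and 89.4 in monoculture EpCAM+. The EpCAM- libraries were all above the EpCAM+ libraries, by 2.52-fold in coculture (log2 difference -1.33, SE 0.0186, adjusted p = 1.45e-10) and 3.31-fold in monoculture (log2 difference -1.72, SE 0.0186, adjusted p = 3.68e-11). Mmp15 (MT2-MMP) stood at 0.339 and 0.212 FPKM in coculture EpCAM- and 34.4 and 34.1 in coculture EpCAM+, against 0.469 and 0.505 in monoculture EpCAM- and 25.6 and 25.3 in monoculture EpCAM+. It was high in EpCAM+ alone, by 4.79 (SE 0.0540, adjusted p = 5.27e-11) in coculture and 4.15 (SE 0.0540, adjusted p = 9.17e-11) in monoculture. Mmp17 (MT4-MMP) was lower in EpCAM+ in both cultures (-1.30 and -1.60), with group means of at most 2.59 FPKM. Mmp16, Mmp24 and Mmp25 stayed at or under 0.151 FPKM in every library.

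The remaining tested MMPs, Mmp19, Mmp23 and Mmp28, had their higher levels in EpCAM-. Mmp23 stood at 21.1 and 21.2 FPKM in coculture EpCAM- and 0.390 and 0.569 in coculture EpCAM+, against 25.4 and 27.0 in monoculture EpCAM- and 0.160 and 0.129 in monoculture EpCAM+. Mmp19 measured 9.45 and 11.6 FPKM in coculture EpCAM- and 0.173 and 0.155 in coculture EpCAM+, against 13.4 and 15.0 in monoculture EpCAM- and 0.0327 and 0.152 in monoculture EpCAM+. Mmp28 gave 1.69 and 1.69 FPKM in coculture EpCAM- and 0.495 and 0.392 in coculture EpCAM+, against 6.81 and 6.84 in monoculture EpCAM- and 0.194 and 0.181 in monoculture EpCAM+. All 3 were higher in each EpCAM- library than in any EpCAM+ library. Mmp19 and Mmp23 were called lower in EpCAM+ in both cultures, with differences of -3.30 and -3.90 in coculture and -3.80 and -4.57 in monoculture. Mmp28 (epilysin) rose in EpCAM- from coculture to monoculture, by 1.54 (SE 0.0520, adjusted p = 1.73e-07), and its fraction difference grew from -0.90 to -2.72, an interaction of -1.82 (SE 0.0736, adjusted p = 6.57e-07). Mmp19 in EpCAM+ was 1.56% of EpCAM- in coculture, within the range of the mesenchymal markers, and Mmp23 was 2.27%, just above it. Exons of Mmp19 share 22.3% of their bases with Tmem198b on the opposite strand, and whether counting used strand is not given. Smaller shares of the exons of Mmp11, Mmp28, Adam8, Adam15, Adam17, Adam19, Adamts4, Adamts7 and Adamts9 also lie opposite other genes, so these values carry the same uncertainty.

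Each of the 3 tested TIMPs, the direct inhibitors of MMPs, had its own pattern. In mm10, Timp1 lies on chromosome X, 20870166 to 20874735, Timp2 on chromosome 11, 118301069 to 118355740 and Timp3 on chromosome 10, 86300372 to 86349506. Timp1 stood at 324 and 316 FPKM in coculture EpCAM- and 46.6 and 50.1 in coculture EpCAM+, against 189 and 183 in monoculture EpCAM- and 73.9 and 73.4 in monoculture EpCAM+. Timp1 was higher in EpCAM- in both cultures, and the fraction difference shrank from -2.70 (SE 0.0350, adjusted p = 9.92e-11) to -1.32 (SE 0.0350, adjusted p = 5.23e-09). Timp1 itself changed by less than 2-fold between cultures, 0.60 in EpCAM+ and -0.78 in EpCAM-, and its interaction was 1.38 (SE 0.0495, adjusted p = 3.89e-07). Timp2 stood at 116 and 114 FPKM in coculture EpCAM- and 82.2 and 79.5 in coculture EpCAM+, against 431 and 434 in monoculture EpCAM- and 109.7 and 106 in monoculture EpCAM+. Timp2, which also takes part in pro-Mmp2 activation with Mmp14, was 3.77-fold higher in monoculture EpCAM- than in coculture EpCAM- (log2 difference 1.90, SE 0.0244, adjusted p = 1.76e-09). Its other 3 groups lay between 79.5 and 116 FPKM.

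Timp3, the TIMP that binds to the matrix and also blocks several ADAM and ADAMTS proteases, stood at 9.27 and 9.85 FPKM in coculture EpCAM- and 174 and 176 in coculture EpCAM+, against 69.0 and 71.8 in monoculture EpCAM- and 214 and 213 in monoculture EpCAM+. It was higher in EpCAM+ in both cultures, by 18.3-fold in coculture (log2 difference 4.06, SE 0.0314, adjusted p = 8.47e-12) and 3.04-fold in monoculture (log2 difference 1.59, SE 0.0314, adjusted p = 8.9e-10). In EpCAM- it rose 7.37-fold from coculture to monoculture (log2 difference 2.76, SE 0.0314, adjusted p = 1.17e-09), and the interaction was -2.47 (SE 0.0444, adjusted p = 1.32e-08). Coculture EpCAM- cells had Timp3 at 5.46% of the EpCAM+ level, above the range of the epithelial markers. Exons of Timp3 share 21.3% of their bases with Syn3 on the other strand, which reached at most 0.233 FPKM.

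The makeup of summed TIMP expression therefore differed by group. Timp1 made 71.9% to 72.1% of the sum in coculture EpCAM-, Timp2 62.5% to 63.0% in monoculture EpCAM-, and Timp3 53.9% to 57.5% in the EpCAM+ libraries. Summed Timp FPKM over summed Mmp FPKM was 1.28 and 1.26 in coculture EpCAM-, 1.65 and 1.64 in monoculture EpCAM-, 2.24 and 2.26 in coculture EpCAM+, and 3.25 and 3.16 in monoculture EpCAM+. The groups did not overlap in this ratio of RNA levels, which is given as a description and was not tested.

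**Figure D4:**
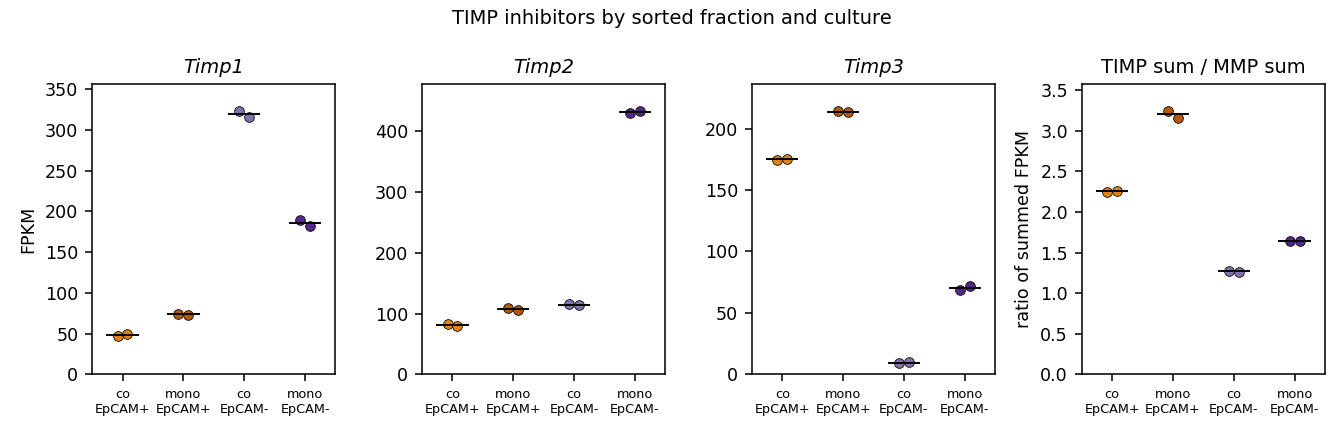
FPKM of Timp1, Timp2 and Timp3 (y axis) in the 4 groups (x axis, co for coculture and mono for monoculture), with bars for group means and points for the 2 libraries, and the ratio of summed Timp to summed Mmp FPKM in the last panel. Timp1 peaks in coculture EpCAM-, Timp2 in monoculture EpCAM-, and Timp3 is lowest in coculture EpCAM-.

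Differences were small among the most studied sheddases. Adam10 and Adam17, the main sheddases of Notch receptors and of TNF and EGF-family ligands, and Adam15 were called at 2-fold in none of the 4 comparisons of groups. Adam10 lay between 44.0 and 57.2 FPKM over the 8 libraries, Adam15 between 22.2 and 34.4 and Adam17 between 11.7 and 20.1. Their fraction differences were 0.36, 0.14 and 0.65 in coculture and -0.14, -0.48 and -0.13 in monoculture. That of Adam15 in coculture has no fixed sign, since it became -0.14 with median-of-ratios scaling and -0.07 with quantile scaling.

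Adam8, Adam9, Adam12 and Adam19, membrane proteases with an active site that are known from tumours, differed between the fractions. Adam8 stood at 0.320 and 0.333 FPKM in coculture EpCAM- and 7.01 and 7.02 in coculture EpCAM+, against 0.281 and 0.291 in monoculture EpCAM- and 9.54 and 9.01 in monoculture EpCAM+. Adam8 was high in EpCAM+ in both cultures, by 2.59 (SE 0.0473, adjusted p = 6.26e-10) and 3.00 (SE 0.0473, adjusted p = 2.51e-10). Adam12 held 48.0 and 48.9 FPKM in coculture EpCAM- and 80.9 and 81.0 in coculture EpCAM+, against 30.0 and 32.5 in monoculture EpCAM- and 98.8 and 97.2 in monoculture EpCAM+. Adam12 was the higher in EpCAM+ in both, by 2-fold in monoculture alone (log2 difference 1.62, SE 0.0350, adjusted p = 1.56e-09). Adam9 gave 80.8 and 80.8 FPKM in coculture EpCAM- and 52.5 and 53.3 in coculture EpCAM+, against 145 and 149 in monoculture EpCAM- and 44.2 and 43.4 in monoculture EpCAM+. Adam9 was highest in monoculture EpCAM-, where EpCAM+ differed by -1.72 (SE 0.0222, adjusted p = 8.85e-11), and its interaction was -1.12 (SE 0.0315, adjusted p = 1.36e-07).

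Adam19 stood at 48.8 and 48.9 FPKM in coculture EpCAM- and 0.823 and 0.781 in coculture EpCAM+, against 30.6 and 31.5 in monoculture EpCAM- and 0.0358 and 0.0301 in monoculture EpCAM+. Every EpCAM- library was above every EpCAM+ library, and EpCAM+ differed by -4.79 (SE 0.0389, adjusted p = 1.1e-11) and -4.95 (SE 0.0389, adjusted p = 7.53e-12). Adam19 in EpCAM+ was 1.64% of EpCAM- in coculture and 0.106% in monoculture, within the range of the mesenchymal markers in both. Adam22 and Adam23 have no active protease site and are known as adhesion proteins of neurons. Adam22 reached 1.99 and 2.14 FPKM in coculture EpCAM- and 1.09 and 1.1 in monoculture EpCAM-, and at most 0.0575 in EpCAM+. Adam23 stood at 2.88 and 3.06 in monoculture EpCAM-, at 0.0384 and 0.0178 in coculture EpCAM-, and was listed at 0 in all 4 EpCAM+ libraries. Its rise in EpCAM- was 1.95 (SE 0.0495, adjusted p = 4.44e-08).

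**Figure D5:**
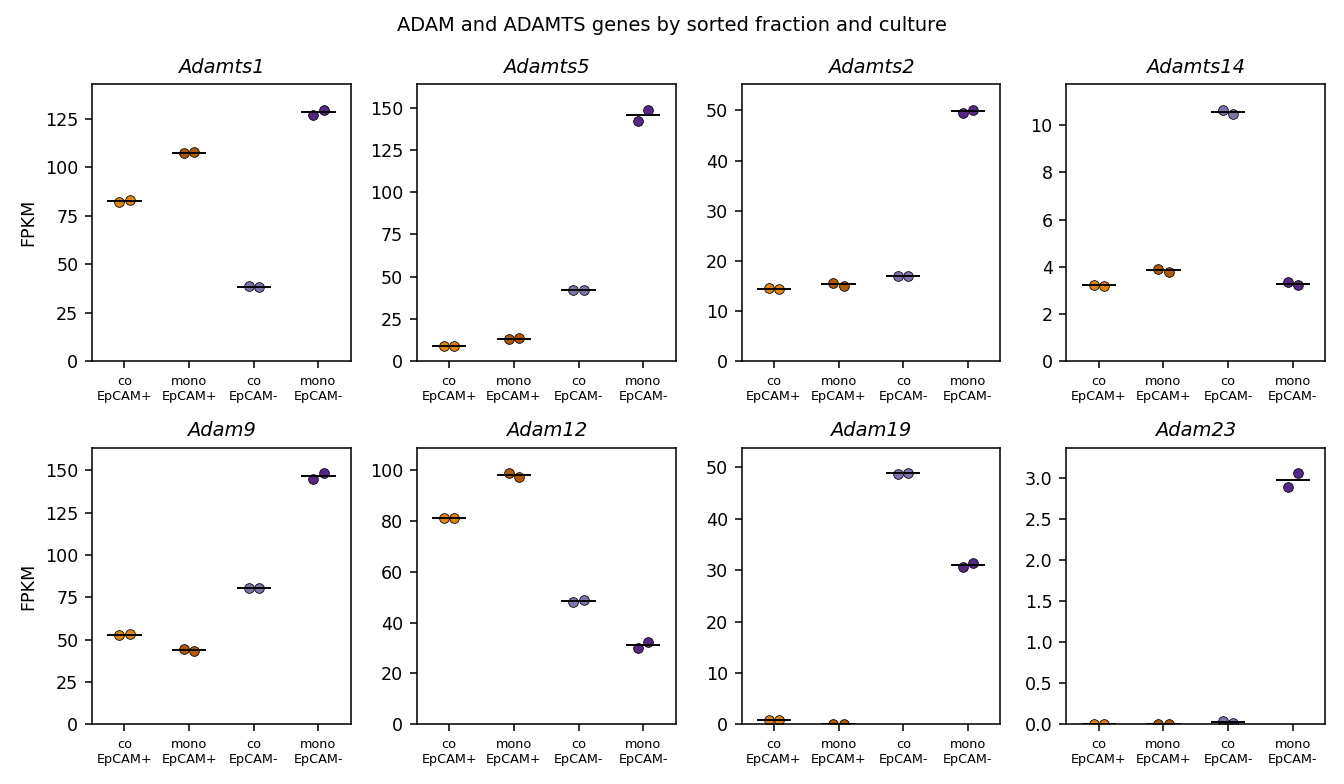
FPKM of Adamts1, Adamts5, Adamts2, Adamts14, Adam9, Adam12, Adam19 and Adam23 (y axis) in the 4 groups (x axis, co for coculture and mono for monoculture), with bars for group means and points for the 2 libraries. Adam19 is high in EpCAM-, Adam12 is higher in EpCAM+, and Adamts2, Adamts5, Adam9 and Adam23 peak in monoculture EpCAM-.

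Adamts1, Adamts4, Adamts5, Adamts9 and Adamts15 cut the proteoglycans aggrecan or versican. Adamts1 and Adamts5 are neighbours on chromosome 16 (85793827 to 85901828 of mm10, 108 kb) and both rose in EpCAM- from coculture to monoculture. Adamts1 stood at 38.6 and 38.3 FPKM in coculture EpCAM- and 82.1 and 83.0 in coculture EpCAM+, against 127 and 129.8 in monoculture EpCAM- and 107 and 108 in monoculture EpCAM+. The rise in EpCAM- was 3.34-fold (log2 difference 1.71, SE 0.0206, adjusted p = 1.34e-09). In coculture EpCAM+ was higher than EpCAM- by 1.08, but only by 0.98 after quantile scaling, 0.99 after scaling to a common total and 0.80 with median-of-ratios scaling, all under 2-fold. Adamts5 held 41.8 and 42.1 FPKM in coculture EpCAM- and 8.96 and 8.72 in coculture EpCAM+, against 142 and 149 in monoculture EpCAM- and 12.8 and 13.3 in monoculture EpCAM+. Adamts5 rose 3.47-fold in EpCAM- (log2 difference 1.77, SE 0.0334, adjusted p = 1.1e-08) and was lower in EpCAM+ in both cultures, with differences of -2.13 and -3.38.

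Adamts15 was high in EpCAM+ alone. Adamts15 stood at 0 and 0.00926 FPKM in coculture EpCAM- and 8.92 and 8.68 in coculture EpCAM+, against 0.0265 and 0.0134 in monoculture EpCAM- and 4.59 and 4.54 in monoculture EpCAM+. Its fraction differences were 3.29 (SE 0.0456, adjusted p = 1.4e-10) and 2.45 (SE 0.0456, adjusted p = 6.41e-10). Adamts9 rose in EpCAM- from 1.64 and 1.78 to 4.81 and 5.15 FPKM, by 1.14 (SE 0.0543, adjusted p = 1.09e-06), with 1.26 and 1.34 and then 0.896 and 0.858 in EpCAM+. Adamts4 stood at 3.47 and 3.91 in coculture EpCAM- and 1.30 and 1.40 in monoculture EpCAM-, a change of -0.998 that missed 2-fold by a small margin. Its interaction was 1.46 (SE 0.0972, adjusted p = 8.08e-06).

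The procollagen N-propeptidases, which trim fibrillar procollagens, did not move together. Adamts2 stood at 17.1 and 16.9 FPKM in coculture EpCAM- and 14.6 and 14.3 in coculture EpCAM+, against 49.4 and 50.2 in monoculture EpCAM- and 15.6 and 15.1 in monoculture EpCAM+. Adamts2 was high in monoculture EpCAM- alone, with a change there of 1.5 (SE 0.0294, adjusted p = 1.25e-08). Adamts14 gave 10.7 and 10.5 FPKM in coculture EpCAM- and 3.24 and 3.19 in coculture EpCAM+, against 3.33 and 3.21 in monoculture EpCAM- and 3.92 and 3.77 in monoculture EpCAM+. Adamts14 was high in coculture EpCAM- alone and fell in EpCAM- by 1.44 (SE 0.0428, adjusted p = 9.44e-08) on the log2 scale towards monoculture. Adamts3 stood at 3.03 and 3.21 in coculture EpCAM+ and 2.57 and 2.48 in monoculture EpCAM+, and at most 0.0414 in EpCAM-.

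Of the other ADAMTS genes, Adamts6 and Adamts10, known for their part in fibrillin microfibrils, and Adamts12 were higher in EpCAM- in both cultures. Adamts6 stood at 15.4 and 14.9 FPKM in coculture EpCAM- and 1.13 and 1.1 in coculture EpCAM+, against 7.44 and 8.74 in monoculture EpCAM- and 1.70 and 1.45 in monoculture EpCAM+. Adamts10 gave 8.80 and 9.22 FPKM in coculture EpCAM- and 3.49 and 3.56 in coculture EpCAM+, against 15.2 and 15.0 in monoculture EpCAM- and 2.52 and 2.46 in monoculture EpCAM+. Adamts12 held 9.69 and 9.88 FPKM in coculture EpCAM- and 1.93 and 1.74 in coculture EpCAM+, against 11.1 and 12.4 in monoculture EpCAM- and 2.51 and 3.03 in monoculture EpCAM+. None of these 3 genes overlapped between the fractions of a culture. With 2 libraries a group this held for nearly all tested members, so it is not particular to these 3 genes. Their fraction differences in coculture were -2.93, -1.14 and -1.93, and in monoculture -1.82, -2.21 and -1.76. Adamts7, known for cutting cartilage oligomeric matrix protein, was called at 2-fold in no comparison, with 0.92 and 0.85 between the fractions.

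Genes outside the rule that act on or with these proteases were read as 7 lists of 79 genes, 68 of them tested. Between the fractions 26 were higher and 18 lower in EpCAM+ in coculture, where 16.5% and 10.1% of all tested genes were, and 27 and 19 in monoculture, where 15.5% and 12.6% were. The counts of single lists below stand against the same shares. Matrix substrates (11 tested) had 1 higher and 9 lower in EpCAM+ in each culture, and inhibitors other than TIMPs (6 tested) 1 higher and 4 lower in each. Shed ligands and receptors (14 tested) gave 8 higher and 2 lower in coculture, and 8 and 3 in monoculture. The list of ADAM10 and ADAM17 trafficking (7 tested) gave 5 higher and 0 lower in coculture, and 4 and 1 in monoculture. For MMP activators and partners (10 tested) these counts were 3 and 1, then 5 and 1, and for ADAMTS-like genes (5 tested) 3 and 1, then 2 and 1. Among transcription factors known from Mmp promoters (15 tested), 5 were higher and 1 lower in coculture, and 6 and 0 in monoculture.

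The largest of these fraction differences in coculture were those of Cdh1 (E-cadherin, shed by Adam10) at 8.00, Notch1 at 6.29, Col3a1 at -5.87, Col1a2 at -5.87, Col1a1 at -5.84 and Areg (amphiregulin, released by Adam17) at 5.80. In monoculture they were Col1a2 at -9.35, Col1a1 at -8.99, Col3a1 at -8.37, Cdh1 at 7.83, Fbn1 (fibrillin 1) at -7.52 and Nid1 (nidogen 1) at -6.99. Of these, Cdh1, Col1a1, Col1a2, Col3a1 and Fbn1 are also in the lists of markers that describe the sort. Between the cultures, 2 of the 68 were higher and 8 lower in monoculture EpCAM+ (0.266% and 1.67% of all genes), and 5 higher and 4 lower in monoculture EpCAM- (2.56% and 1.96% of all genes). Those called in EpCAM+ were named after their values were seen. The 2 higher were Hbegf, an EGF-family ligand released by sheddases, at 1.04, and Fosl1, a subunit of activator protein 1, at 1.06. Hbegf was called lower in monoculture EpCAM-, at -1.49. The 8 lower in EpCAM+ included Fos, another subunit of activator protein 1, at -1.01. They also included the 6 matrix genes Col1a1, Col1a2, Col3a1, Dcn, Fbn1 and Nid1, beside a mesenchymal marker sum that was 229.2 to 229.9 FPKM in coculture EpCAM+ and 21.6 to 21.8 in monoculture EpCAM+; the part of that share in these falls was not tested.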

How the data were processed

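Total RNA of 8 libraries (4 groups of 2) was sequenced as read pairs of 150 bp, per the labels' protocols. The authors deposited FPKM per gene, a file per library. Per the submitters' processing notes, the build was mm10 and the tools, given with neither order nor version, were HISAT2, HTSeq, edgeR, SAMtools, cutadapt and FastQC. Not given in the sources used here are the annotation, the strandedness and the treatment of shared reads. No counts could be had, so no count test was used and no counting interval is given.

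Genes of at least 1 FPKM in at least 2 of 8 libraries were tested (12012). Values as log2(FPKM + 1) were fitted with limma 3.58.1 (R 4.3.3; lmFit, contrasts.fit, eBayes with trend) as means of the 4 groups over all 8 libraries, which pools the spread. P-values are two-sided, adjusted by Benjamini-Hochberg over all genes tested, and calls need an adjusted p under 0.05 and a 2-fold change. The fit was tested on simulated data. The 79 members and all lists were chosen with earlier results of these data known. All tested members are named; values per library are given for Mmp9, the TIMPs and called members of at least 5 FPKM in some group, and the 6 largest differences of the related lists in each culture. Coordinates are from GENCODE M21 for GRCm38 (mm10), in which all 79 names matched, and promoters from RefSeq GRCm38.p6, where 49 matched. Alternatives were other pseudocounts, filters, scalings and eBayes without trend, a replicate block, only the libraries compared, each library left out, and subtraction of the other fraction's share as measured by its markers. Python 3.11.15 with pandas 2.3.3, NumPy 2.4.6, SciPy 1.17.1 and matplotlib 3.10.9 made the other tables and figures.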

Additional observations from a re-analysis of the deposited data

Results flagged for a closer look

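For 19 of the 36 tested genes the fraction difference was called as changed between cultures, by at least 2-fold. The limma test was of that change itself (adjusted p from 1.32e-08 to 6.02e-05). Of the 19, 8 were positive (2.43% of all tested genes) and 11 negative (5.66% of all tested genes). Without a minimum change 34 of 36 passed, against 65.2% of all genes. Each value is the log2 difference of EpCAM+ from EpCAM- in monoculture less that in coculture. Positive values were found for Mmp9 (4.31), Mmp13 (2.91), Mmp10 (2.69), Mmp3 (1.71), Adamts14 (1.64), Adamts4 (1.46), Timp1 (1.38) and Adamts6 (1.11). Negative values were found for Timp3 (-2.47), Adam23 (-1.95), Mmp28 (-1.82), Timp2 (-1.49), Adamts9 (-1.43), Adamts2 (-1.42), Adamts1 (-1.34), Adamts5 (-1.25), Adam9 (-1.12), Adamts10 (-1.06) and Mmp11 (-1.06). Of the 14 that were also called between cultures in EpCAM-, Mmp9 was the 1 called in EpCAM+ too.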

How the results depend on the processing

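With 19 alternatives, 84 called gene changes gave 1558 values, of which 1552 kept their direction and call, 6 were no longer called and 0 were reversed. The filter of 5 FPKM gave values for only 65 of the 84 changes, as did the fit of only the 4 libraries compared. Kept in every alternative that gave them a value were 81 of the 84 changes. The others were the coculture fraction difference of Adamts1 (0.99 scaled to the same sum, 0.80 by the median of ratios, 0.98 by quantiles) and the interactions of Adamts10 (-0.84 by quantiles) and Mmp11 (-0.86 by quantiles, -0.98 with the other fraction's share subtracted); the cause was not tested. The count called between cultures in EpCAM+ went from 1 to 5 with a pseudocount of 0.1 (Adam19, Mmp2, Mmp13 and Mmp23 lower) and to 3 with 0.5 (Adam19 and Mmp2 lower); a smaller pseudocount enlarges changes of low values. The median difference of all genes moved from 0.26 to 0.00 in coculture and from 0.23 to 0.01 in monoculture by the median of ratios, and the coculture split of the members was then 5 higher and 19 lower. The labels share replicate numbers between groups but do not say that a number marks a culture or day, and deviations of libraries with the same number correlated at -0.07 to 0.04. A replicate block left the counts at 23, 27, 1, 14 and 19, in the order of the report. With each library left out in turn they were 23 to 24, 27, 1, 14 to 15 and 19. An interaction from only the 4 libraries compared could not be had. Depth is unknown, so low values carry no limit of detection.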
